A study of Mus musculus with 6 samples.

Results

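Ketogenesis and the fasting response driven by the nuclear receptor PPAR alpha were followed through 7 genes of mouse liver. They were Ppara, Creb3l3, Bdh1, Acat1, Pdk4, Vnn1 and Ucp2, chosen by gene symbol from a table of 20107 genes. All 7 had enough counts to be tested, as had 14896 genes in all. The livers came from 6 male C57BL/6N mice (Envigo), wild-type littermates aged 16 weeks. From 8 weeks of age, 3 mice (replicates 1, 2 and 3) ate the HFHC diet, a high-fat, high-calorie food with fructose and a high-fructose drink, for 8 weeks, and 3 mice (replicates 7, 8 and 9) stayed on Chow. Both diets were given without restriction, and no group was labelled as fasted, so "fasting response" names the gene set and not a treatment. The comparison addresses how the HFHC diet changes gene expression in liver.

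Hepatocytes turn acetyl-CoA from fatty acid oxidation into the ketone bodies acetoacetate and beta-hydroxybutyrate in mitochondria and release them as fuel for other organs. PPAR alpha, encoded by Ppara, is bound by fatty acids and pairs with RXR to switch on genes of fatty acid oxidation and ketogenesis when food is withdrawn. CREB3L3, also called CREBH, is a membrane-bound transcription factor of liver that is cut free by site proteases and works together with PPAR alpha on several of the same genes. Acat1 and Bdh1 encode the first and the last enzyme of ketone body synthesis. Pdk4, Vnn1 and Ucp2 are known PPAR alpha targets with other tasks in fuel choice, coenzyme A turnover and the mitochondrial inner membrane.

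A PPAR alpha and RXR pair binds a direct repeat of the half-site AGGTCA with 1 base between the copies, so the promoters of the 7 genes were searched for AGGTCANAGGTCA on both strands with at most 2 mismatches in its 12 fixed letters. RefSeq windows of 300 bases (build GRCm38.p6) were used for 5 of the 7 genes, with 7 start sites among them. Acat1 and Vnn1 had no window and were not searched. One window held a match, at an internal start of Creb3l3 (chr10:81092542-81092841, minus strand). The match lies at chr10:81092788-81092800, begins 209 bases before that start, has 2 mismatches, and lies within the gene but outside its exons in GENCODE M21. Of all 32851 promoter windows, 3.86% held such a match. The cyclic AMP response element TGACGTCA, the kind of site that CREB family factors bind, was searched with at most 1 mismatch, overlapped no match of the repeat, and was found in none of the 7 windows and in 12.5% of all windows. The internal and the upstream window (chr10:81098823-81099122, minus strand) of Creb3l3 are shown beside that of Ppara (chr15:85735526-85735825, plus strand), because these genes encode the receptor and its partner factor. Capitals mark the match.
Creb3l3 internal start: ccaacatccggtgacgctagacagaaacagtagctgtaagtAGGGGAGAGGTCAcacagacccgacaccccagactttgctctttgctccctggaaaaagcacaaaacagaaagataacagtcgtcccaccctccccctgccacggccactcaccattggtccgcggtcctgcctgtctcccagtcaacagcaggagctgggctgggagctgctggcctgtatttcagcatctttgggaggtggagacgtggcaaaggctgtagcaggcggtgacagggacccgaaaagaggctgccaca
Creb3l3 upstream start: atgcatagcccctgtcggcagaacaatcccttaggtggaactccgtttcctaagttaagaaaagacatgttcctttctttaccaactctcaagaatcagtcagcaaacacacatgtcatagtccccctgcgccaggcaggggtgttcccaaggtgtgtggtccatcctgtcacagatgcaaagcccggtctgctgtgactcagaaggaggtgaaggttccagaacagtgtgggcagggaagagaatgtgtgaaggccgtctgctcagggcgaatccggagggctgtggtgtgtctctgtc
Ppara start: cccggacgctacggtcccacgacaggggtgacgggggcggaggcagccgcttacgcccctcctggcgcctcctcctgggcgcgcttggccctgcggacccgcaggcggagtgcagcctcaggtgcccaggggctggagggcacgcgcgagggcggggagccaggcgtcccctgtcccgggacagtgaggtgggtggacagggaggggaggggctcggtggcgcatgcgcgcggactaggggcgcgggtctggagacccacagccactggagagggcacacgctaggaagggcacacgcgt
The Ppara window had 74.7% G and C and 30 CpG pairs, against medians of 52.7% and 7 over all windows. The matches describe letters in these windows, and binding was not measured.

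In HFHC livers 4 of the 7 genes rose, none fell, and 3 did not pass. Ppara, Bdh1, Acat1 and Vnn1 passed at an adjusted p under 0.05 (edgeR's quasi-likelihood test, Benjamini-Hochberg over all tested genes), and Creb3l3, Ucp2 and Pdk4 did not. Over all tested genes, 3.38% passed as higher, 3.3% as lower and 6.67% in either direction. At an unadjusted p under 0.05, 6 of the 7 genes were higher and none lower. DESeq2 called 5 of the 7 higher and none lower, beside 599 higher and 660 lower over all genes. The share of all tested genes at an unadjusted p under 0.05 was not counted, here or for the lists below. In 6 of the 7, all but Pdk4, every HFHC library lay above every Chow library, which was so for 13.5% of tested genes. The reverse held for 14.3% of tested genes, and the diets did not overlap in 27.8%. The median log2 fold change of the 7 was 0.38, against 0.00 over all tested genes. Leaving out Chow replicate 7 or 9 left 2 of the 4 calls. Log2 fold changes compare HFHC with Chow and carry a standard error (SE). Levels are CPM, read counts scaled to sequencing depth with TMM factors, with n = 3 per diet.

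**Figure D1:**
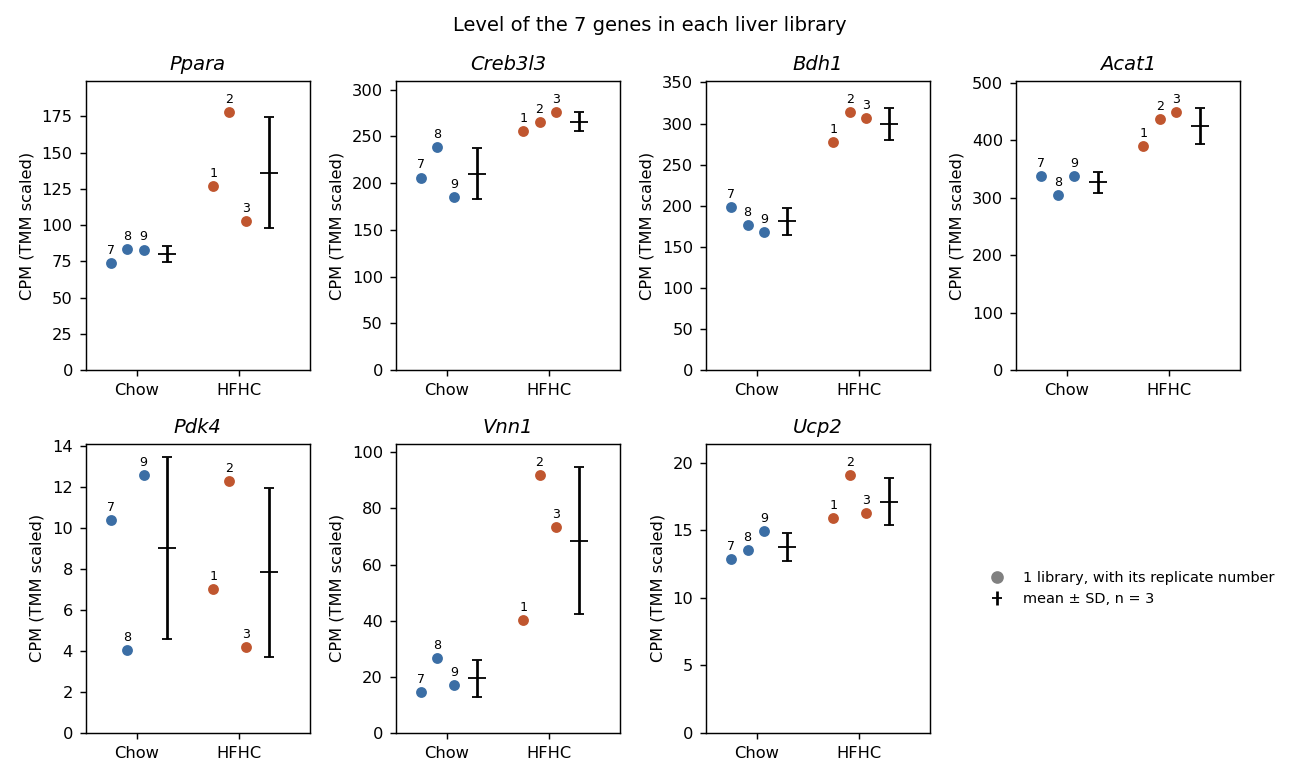
CPM (vertical axes, from 0) of the 7 genes by diet, where each point is 1 liver library marked with its replicate number and the bar beside the points is the mean ± SD of 3 libraries. The diets are apart in 6 panels and overlap in that of Pdk4, and HFHC replicate 2 is the highest HFHC library in 5 panels.

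The libraries held 26767415 to 30871262 counts, and 1 count stood for 0.0318 to 0.0379 CPM. The first principal component of all tested genes separated the diets. On the second, Chow replicate 8 lay at -30.4 and the other Chow livers at 11.2 and 11.9. Hepatocyte markers such as Alb, the albumin gene, summed to 80215 to 83658 CPM in HFHC and 73026 to 92467 CPM in Chow, with 2 of 8, Cps1 and Tat, called lower in HFHC. The 8 recruited macrophage markers summed to 44.4 to 50.6 CPM in HFHC and 40.5 to 47.6 CPM in Chow. None of the 7 tested was called by edgeR (2 higher at an unadjusted p under 0.05, 1 by DESeq2), with a median log2 fold change of 0.57. Cfd, the only 1 of 5 adipocyte markers found among the 20107 genes, was called higher (adjusted p = 0.0226 by edgeR). It stood at 0.382, 1.7 and 0.402 CPM in HFHC and 0, 0 and 0.0377 CPM in Chow. Cfd was highest in HFHC replicate 2, as were Ppara, Bdh1, Vnn1, Ucp2 and 48.3% of all genes called higher. Its part in the values of the 7 genes was not tested. In whole tissue, a change in the number of cells of a type and a change in RNA per cell cannot be told apart. Clock genes also differed between livers and between diets. Dbp was called higher in HFHC (log2 fold change 1.26, adjusted p = 0.0306 by edgeR) and Clock lower (-0.60, adjusted p = 0.00449 by edgeR). An index of clock phase, taken as the mean log2 CPM of Dbp, Per2 and Per3 less the mean of their counterparts Clock, Npas2 and Arntl and then centred on its mean over the 6 libraries, stood at 0.47 to 1.28 in HFHC, at -1.92 and -1.43 in Chow replicates 7 and 9, and at 0.48 in Chow replicate 8. With this index as a covariate, a fit added after the values were seen, none of the 7 genes passed (0 by edgeR), and calls over all genes fell from 503 to 36 higher and from 491 to 31 lower. The index carries part of the diet difference, so index and diet cannot be fully told apart in that fit. The log2 fold changes in that fit were 0.67 for Ppara, 0.76 for Bdh1, 0.44 for Acat1 and 0.29 for Ucp2, against 0.76, 0.73, 0.38 and 0.31 without the covariate. They were 0.12 for Creb3l3, 0.96 for Vnn1 and 1.04 for Pdk4, against 0.34, 1.82 and -0.20.

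Ppara, on chromosome 15 (85734983 to 85802819, plus strand, mm10), encodes PPAR alpha itself. It stood at 127, 178 and 103 CPM in HFHC replicates 1, 2 and 3 and at 74.0, 83.5 and 83.2 CPM in Chow replicates 7, 8 and 9. All HFHC livers were above all Chow livers, and the HFHC livers were spread more widely, with a ratio of highest to lowest of 1.74 against 1.13 in Chow. The means were 136 ± 38.7 and 80.2 ± 5.43 CPM (SD, n = 3), a 1.69-fold difference (log2 fold change 0.76 ± 0.17, adjusted p = 0.033 by edgeR). The call was lost without HFHC replicate 1 (0.0679), Chow replicate 7 (0.123) or Chow replicate 9 (0.0814) and with the clock index as covariate (0.67, adjusted p = 0.462 by edgeR).

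Creb3l3 lies on chromosome 10 (81084324 to 81098874, minus strand). The window of its internal start holds the match printed above, whose 2 mismatches both fall in the first half-site. Its levels were 256, 265 and 276 CPM in HFHC and 206, 239 and 185 CPM in Chow. The HFHC livers lay close together and above all Chow livers, of which Chow replicate 8 came nearest. The difference, 1.26-fold with a log2 fold change of 0.34 ± 0.10, did not pass (adjusted p = 0.0792 by edgeR). It passed without Chow replicate 8 (0.45, adjusted p = 0.0229 by edgeR), with DESeq2 (0.0321) and with weighted limma-voom (0.0349), and stood at 0.12 with the clock index as covariate (adjusted p = 0.817).

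Both ketone body enzymes among the 7 genes rose. Acat1, on chromosome 9 (53580522 to 53610382, minus strand), encodes the mitochondrial thiolase that joins 2 acetyl-CoA molecules and also serves isoleucine breakdown. Its levels were 390, 436 and 449 CPM in HFHC and 338, 305 and 337 CPM in Chow, with no overlap. It rose 1.30-fold, from 327 ± 18.6 to 425 ± 30.6 CPM (log2 fold change 0.38 ± 0.09, adjusted p = 0.0351 by edgeR). When livers were dropped singly, the call held only without HFHC replicate 1 (0.044), and it was lost on dropping any other liver (0.0702 to 0.102).

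Bdh1, on chromosome 16 (31422280 to 31458901, plus strand), encodes the dehydrogenase that interconverts acetoacetate and beta-hydroxybutyrate. Its levels were 277, 314 and 307 CPM in HFHC and 199, 176 and 168 CPM in Chow, a clear gap between the diets. The mean went from 181 ± 15.8 to 299 ± 19.8 CPM, 1.65-fold, with the smallest p of the 7 genes (log2 fold change 0.73 ± 0.09, adjusted p = 0.00285 by edgeR). The call held whichever liver was dropped (0.00585 to 0.0142), and was lost with the clock index as covariate although the value did not shrink (0.76, adjusted p = 0.121 by edgeR). A gene on the opposite strand, Gm15743, covers 13.7% of the exonic bases of Bdh1. Whether counting used strand is not given in the sources used here, so reads of the pair cannot be told apart.

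Of the list of ketone body synthesis, use and transport, 5 of 11 tested genes rose and none fell, with a median log2 fold change of 0.21. At an unadjusted p under 0.05 the counts were 6 and 0, and DESeq2 gave 5 and 0. The genes that rose included Acat1 and Bdh1. Aacs, another gene of the list that rose, encodes a cytosolic enzyme that spends acetoacetate on lipid synthesis. It rose by 1.54 ± 0.34, from 27.1 to 87.5 CPM in the Chow livers to 140 to 196 CPM in the HFHC livers. Its call was lost on dropping any HFHC liver or Chow replicate 9.

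Oxct1, Slc16a1 and Bdh2 of the same list did not pass. Oxct1, which peripheral tissues need to use ketone bodies, was low at 4.46 to 4.84 CPM in HFHC and 4.56 to 5.88 CPM in Chow. Slc16a1, a carrier of ketone bodies and lactate, stood at 67.5 to 72.2 CPM in HFHC and 59.2 to 61.3 CPM in Chow (0.21 ± 0.07, adjusted p = 0.117 by edgeR), and Bdh2 at -0.31 ± 0.17. The count of genes that rose in this list fell to 2 without HFHC replicate 2, HFHC replicate 3 or Chow replicate 7, to 3 without Chow replicate 8 and to 1 without Chow replicate 9.

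Vnn1 changed most. It lies on chromosome 10 (23894688 to 23905343, plus strand) and encodes a pantetheinase, an enzyme that cleaves pantetheine, a breakdown product of coenzyme A. Its levels were 40.1, 92.0 and 73.5 CPM in HFHC and 14.5, 26.8 and 16.9 CPM in Chow. No libraries overlapped, although HFHC replicate 1 stood well below the other two HFHC livers. Vnn1 rose 3.53-fold, from 19.4 ± 6.49 to 68.5 ± 26.3 CPM (log2 fold change 1.82 ± 0.30, adjusted p = 0.00915 by edgeR). The call held whichever liver was dropped (0.00322 to 0.0392), and the value stood at 0.96 with the clock index as covariate (adjusted p = 0.371).

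Among pantetheinases and genes of coenzyme A turnover, 4 of 16 rose and none fell (6 and 0 at an unadjusted p under 0.05, 4 and 0 with DESeq2), with a median of 0.13. Vnn3, a second pantetheinase gene, rose by 0.71 ± 0.09 to 61.3 to 65.6 CPM in HFHC from 35.2 to 43.1 CPM in Chow. Ppcs, an enzyme of coenzyme A synthesis, rose by 0.45 ± 0.08, and Slc5a6, the transporter of its precursor pantothenate, by 0.67 ± 0.14. The pantothenate kinase genes Pank1 to Pank4 did not pass (-0.02 to 0.30). The count fell to 2 without HFHC replicate 1, Chow replicate 7 or Chow replicate 9.

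Pdk4 did not follow the other genes. It lies on chromosome 6 (5483351 to 5496309, minus strand) and encodes a kinase that shuts off the pyruvate dehydrogenase complex and so spares pyruvate from oxidation. Its levels were 7.03, 12.3 and 4.19 CPM in HFHC and 10.4, 4.06 and 12.6 CPM in Chow. The diets overlapped throughout, and within each diet the highest liver was 2.93 times (HFHC) or 3.09 times (Chow) the lowest. The log2 fold change was -0.20 ± 0.43 (adjusted p = 0.838 by edgeR), with summed counts of 730 in HFHC and 719 in Chow. Its direction turned without HFHC replicate 3 (0.10) or Chow replicate 9 (0.12) and with the clock index as covariate (1.04, adjusted p = 0.607 by edgeR), and it stood at -0.67 without HFHC replicate 2 and -0.54 without Chow replicate 8.

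In the pyruvate dehydrogenase list 2 of 15 genes rose and none fell (3 and 0 at an unadjusted p under 0.05, 2 and 0 with DESeq2). Pdk1, another kinase of the complex, rose from 77.2 to 98.6 CPM in Chow to 127 to 137 CPM in HFHC (0.65 ± 0.11, adjusted p = 0.00869 by edgeR). Pdk2, at 60.3 to 68.6 CPM in HFHC, had 0.04 ± 0.11, and Pdk3, under 1 CPM in each library, had -0.65 ± 0.48. Pcx, which turns pyruvate into oxaloacetate, rose by 0.61 ± 0.11. Its call was lost without Chow replicate 7 or 9, which left 1 gene of the list.

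Ucp2, on chromosome 7 (100493337 to 100502020, plus strand), encodes a mitochondrial carrier called uncoupling protein 2, which in liver is known from macrophages and from hepatocytes of fatty liver. Its levels were 15.9, 19.1 and 16.3 CPM in HFHC and 12.9, 13.5 and 14.9 CPM in Chow. The diets did not overlap, though HFHC replicate 1 was near Chow replicate 9. The 1.24-fold difference (log2 fold change 0.31 ± 0.11) did not pass (adjusted p = 0.121 by edgeR) and did not pass under any of the 16 other settings (0.0875 to 0.642). The 13 Kupffer cell markers summed to 400 to 488 CPM in HFHC and 353 to 414 CPM in Chow, with none called by edgeR, DESeq2 or limma-voom. At an unadjusted p under 0.05, 5 were higher and 1 lower. The median log2 fold change of the list was 0.20. Defining Kupffer cell genes differed in sign, with log2 fold changes of 0.30 for Clec4f, 0.28 for Cd5l, -0.03 for Timd4, -0.14 for Vsig4 and -0.22 for Cd163. Of the other markers, Lyz2 had -0.11 and the rest ran from 0.04 for Marco to 0.39 for Cd68. Their part in the Ucp2 value was not tested. Exons of Ucp2 overlap the antisense gene Dnajb13 over 4.36% of their length, and Dnajb13 had summed counts of 24 in HFHC and 6 in Chow. Of the 6 tested uncoupling proteins and adenine nucleotide carriers none passed by edgeR or DESeq2, with 2 higher at an unadjusted p under 0.05, and 1 was called higher without Chow replicate 8. Slc25a5, the main adenine nucleotide carrier among them at 254 to 322 CPM, had 0.22 ± 0.08, and Slc25a30 had 1.04 ± 0.50 with Chow livers from 17.0 to 96.7 CPM.

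**Figure D2:**
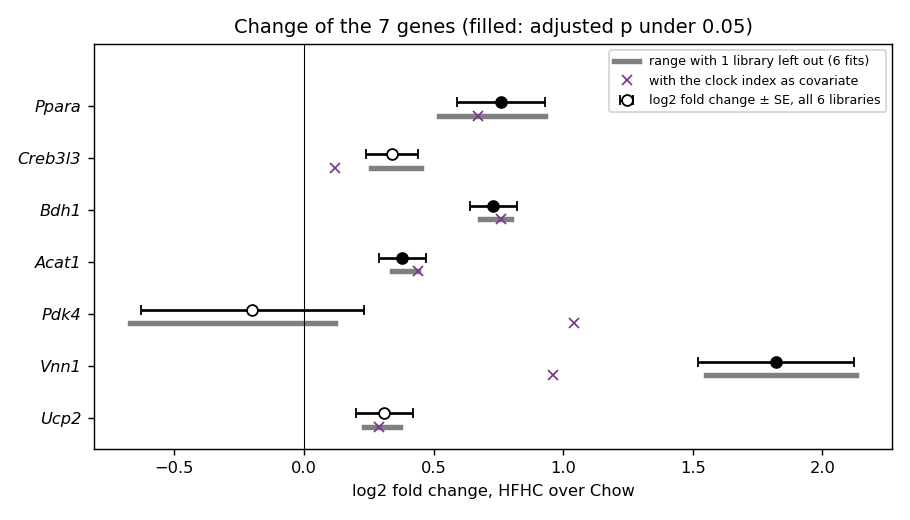
Log2 fold change, HFHC over Chow, of the 7 genes (points ± SE, filled where the adjusted p was under 0.05), with the range when each of the 6 livers was dropped in turn (grey bars) and the value with the clock index as covariate (crosses). Vnn1 stands highest at 1.82, 5 genes lie between 0.31 and 0.76, and the bar of Pdk4 crosses 0.

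Per kilobase of exon, Acat1 was the most abundant of the 7 genes in both diets, at 113 ± 8.15 CPM per kilobase in HFHC and 87.0 ± 4.94 in Chow. Creb3l3 followed (88.1 ± 3.33 and 69.7 ± 8.95), then Bdh1 (77.0 ± 5.08 and 46.6 ± 4.06). Ppara (35.4 ± 10.1) and Vnn1 (28.4 ± 10.9) did not differ beyond their spread in HFHC, whereas in Chow Ppara (20.9 ± 1.42) stood above Vnn1 (8.03 ± 2.69). Ucp2 and Pdk4 were lowest, at 2.44 ± 0.246 and 2.23 ± 1.17 in HFHC and 1.97 ± 0.147 and 2.56 ± 1.26 in Chow, and did not differ beyond their spread. These lengths join all annotated exons, which for Ucp2 gives 6.99 kilobases and may lower its level per kilobase.

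The 7 genes differed in how much livers on 1 diet varied. The SD of log2(CPM + 0.5) within diets was 0.77 for Pdk4, 0.54 for Vnn1 and 0.29 for Ppara, above that of 99.6%, 98.7% and 90.1% of tested genes. It was 0.10 to 0.14 for Acat1, Bdh1, Ucp2 and Creb3l3, against a median of 0.14 over all tested genes. HFHC replicate 2 was the highest HFHC liver for Ppara, Bdh1, Pdk4, Vnn1 and Ucp2. That liver was the highest of its diet in 34% of all tested genes and in 48.3% of the genes called higher. The share was 64.9% in the 57 PPAR alpha target genes, which include 5 of the 7 genes, and 69.7% in the other fasting response genes. In the remaining lists it ran from 33.3% to 56.5%. The PPAR alpha targets were thus not the list with the highest share, and the cause was not tested. In Chow replicate 8, Pdk4 was 0.92 below and Vnn1 0.50 above the diet mean on the log2 scale.

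**Figure D3:**
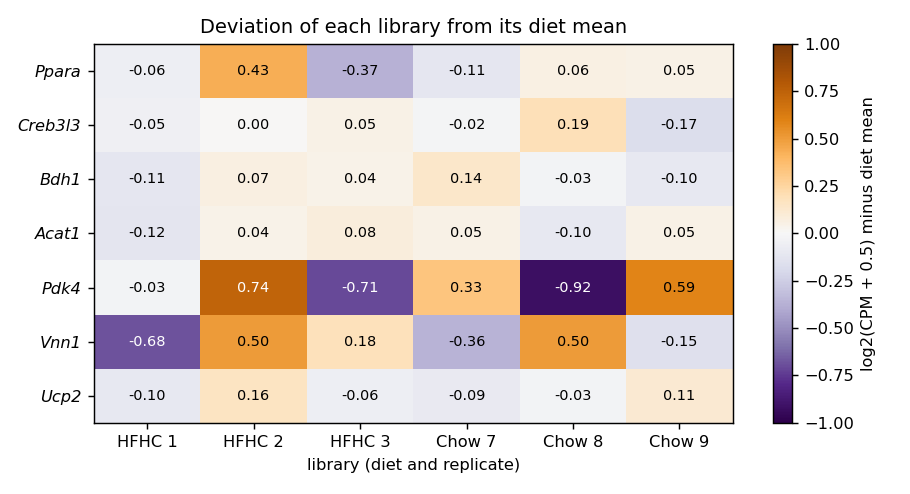
Log2(CPM + 0.5) of each of the 7 genes (rows) in each library (columns) minus the mean of its diet, as colour and number. Pdk4 ranges from -0.92 in Chow replicate 8 to 0.74 in HFHC replicate 2, while Acat1 stays between -0.12 and 0.08.

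Of the PPAR alpha target genes of liver, a list that holds 5 of the 7 genes, 27 of 57 rose and none fell, with a median log2 fold change of 0.44 and 51 positive values. At an unadjusted p under 0.05, 40 were higher and 2 lower, and DESeq2 called 30 and 0. The smallest p values outside the 7 genes belonged to Fgf21, a hormone of the fasted liver (0.151 to 0.363 CPM in Chow, 3.55 to 11.8 in HFHC), Cpt1a, the entry enzyme of mitochondrial oxidation (259 to 271 and 424 to 508 CPM), and the droplet coat gene Plin2 (281 to 410 and 690 to 780 CPM). Not all classic targets passed. Angptl4, an inhibitor of lipoprotein lipase, had -0.10 ± 0.18 and did not pass. Of the fatty acid hydroxylase genes, Cyp4a10 passed narrowly (0.89 ± 0.23, adjusted p = 0.0491 by edgeR). Cyp4a14 had 1.80 ± 0.53 with overlapping livers and did not pass (adjusted p = 0.077 by edgeR), nor did Cyp4a31 (0.75 ± 0.20) or Cyp4a32 (-0.32 ± 0.13). Without Chow replicate 7 the count was 10.

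Partners and coregulators of PPAR alpha gave 2 genes higher and 1 lower of 23, with a median of -0.17. These were 8.7% and 4.35% of the list, beside 3.38% and 3.3% of all tested genes. At an unadjusted p under 0.05, 2 were higher and 6 lower, without a share over all tested genes to set beside them. DESeq2 called 2 and 1. Besides Ppara, Pparg, a related receptor that promotes fat storage, rose by 0.76 ± 0.15 to 11.5 to 16.2 CPM. Ncoa2, a coactivator, fell by 0.33 on the log2 scale (SE 0.08, adjusted p = 0.0486 by edgeR), a call lost on dropping any liver (0.0625 to 0.175), with upper-quartile factors (0.0633), with no count filter (0.0686) and after removal of GC and length trends (0.101). Rxra, the obligate partner, stood at 360 to 452 CPM in HFHC and 392 to 413 CPM in Chow (0.04 ± 0.10), and the coactivator gene Ppargc1a at -0.42 ± 0.18 (adjusted p = 0.201 by edgeR). The count of higher genes was 1 without HFHC replicate 1 and 0 without Chow replicate 7 or 9.

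Of the CREB3 family with its proteases, none of 11 tested genes passed by edgeR, with 3 higher at an unadjusted p under 0.05 and 1 higher by DESeq2. Creb3l1, another family member, had the smallest p (1.21 ± 0.34, adjusted p = 0.0662 by edgeR) at 0.700 to 1.04 CPM in HFHC and 0.228 to 0.508 CPM in Chow. The protease genes Mbtps1 and Mbtps2, which release CREB3L3 from the membrane, each had -0.09. Without Chow replicate 8, 2 genes passed as higher. Of 11 known CREB3L3 target genes, of which Fgf21 and Cidec are also among the PPAR alpha targets (2 genes, 18.2% of this list and 3.51% of that one), 7 rose and none fell (8 and 1 at an unadjusted p under 0.05, 7 and 0 with DESeq2). Their median was 0.69. Apoa4, an apolipoprotein, went from 73.0 to 94.5 CPM in Chow to 1570 to 2450 CPM in HFHC, and Apoc2, the activator of lipoprotein lipase, from 66.9 to 78.4 CPM to 140 to 151 CPM. Apoc2 lies within an overlapping gene model on the same strand in GENCODE M21, so its value is uncertain. The acute phase targets Crp (-0.25 ± 0.10), Hamp (-0.04 ± 0.21) and Apcs (0.13 ± 0.10) did not pass, nor did Apoa1 (0.29 ± 0.11), another apolipoprotein gene.

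Of the other genes of the fasting response, 2 of 33 rose and 2 fell (6.06% each way, beside 3.38% and 3.3% of all tested genes), with a median of -0.18 and 11 positive values. At an unadjusted p under 0.05, 3 were higher and 6 lower, and DESeq2 called 2 and 2. The steroid hydroxylase gene Cyp17a1 (2.38 ± 0.28) and the stress factor gene Atf3 (2.09 ± 0.25, at 1.91 to 2.37 CPM in HFHC) rose. Tat, which breaks down tyrosine, fell from 1373 to 2093 CPM in Chow to 783 to 848 CPM in HFHC, and Sds, a serine dehydratase named after its value was seen, fell by 0.72 on the log2 scale. Chow replicate 8 was the lowest Chow liver in 57.6% of these 33 genes and in 38.6% of all tested genes. It held 330 counts of Igfbp1, a secreted protein repressed by insulin, against 2526 and 2771 in Chow replicates 7 and 9, the order seen among Chow livers for Pdk4. Without Chow replicate 8, 7 genes of this list passed as lower. Without HFHC replicate 1, HFHC replicate 3 or Chow replicate 9, 1 passed as lower, and 4 as higher without Chow replicate 9.

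**Figure D4:**
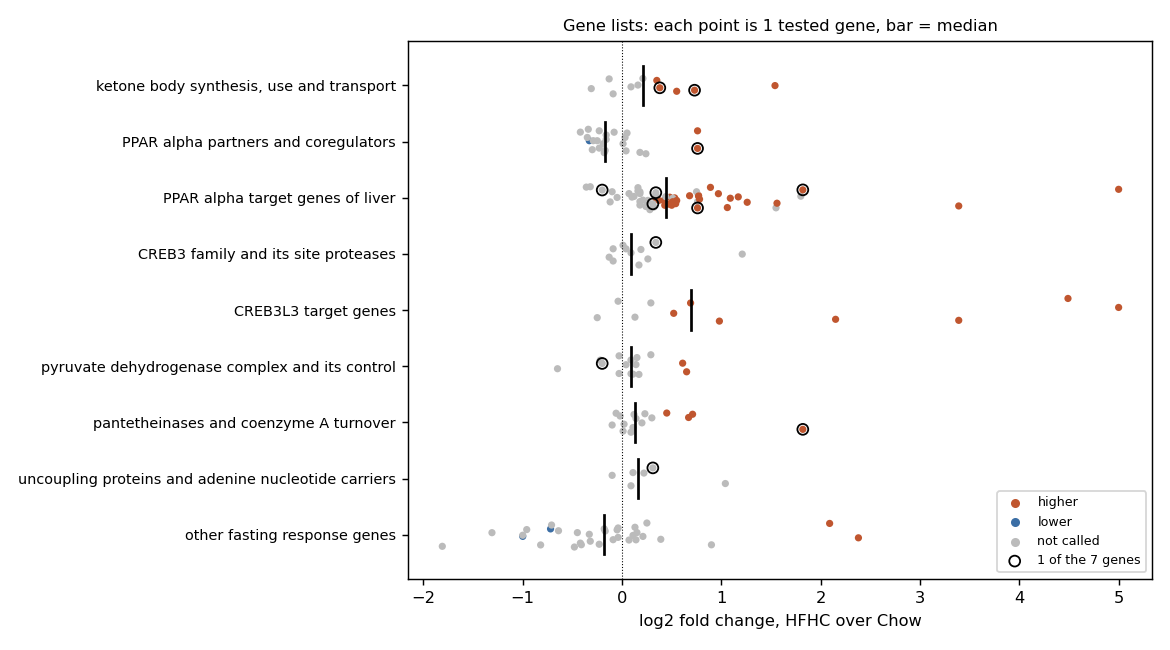
Log2 fold change, HFHC over Chow, of every tested gene of the 9 gene lists (points, coloured by call; open circles mark the 7 genes; black bars are list medians). PPAR alpha and CREB3L3 target genes lie mostly to the right of 0, with medians of 0.44 and 0.69, and the medians of coregulators (-0.17) and of other fasting genes (-0.18) lie to the left.

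Genes with the most similar levels across the 6 libraries were found by the root mean square difference of log2(CPM + 0.5), each gene centred on its own mean, among 9127 others with at least 5 CPM. Ppara was nearest to Anxa2, a membrane-binding annexin, and to Pparg (0.115 each). Creb3l3 was nearest to Pllp (0.028) and Nsmf (0.030), Acat1 to Pradc1 (0.037) and the prion protein gene Prnp (0.038), and Ucp2 to Abhd17a (0.035) and the galactokinase gene Galk1 (0.039). Bdh1 was nearest to Kyat3, a kynurenine aminotransferase (0.064), and Arsg, a sulfatase (0.075). Vnn1 had Aatk, a kinase gene (0.120), and then Adgrv1, an adhesion receptor (0.268). Pdk4 had 0.313 to the arrestin-like gene Arrdc4 and 0.319 to Egfr, the epidermal growth factor receptor. Egfr stood at 916, 441 and 774 CPM in Chow replicates 7, 8 and 9, so that Chow replicate 8 was the lowest Chow liver there too. Among the 7 genes themselves the distance was smallest for Acat1 and Ucp2 (0.109) and largest for Pdk4 and Vnn1 (1.288). Pdk4 and Vnn1 also varied most within diets (SD 0.77 and 0.54). The diet difference is part of each such distance. Levels were centred but not scaled, so a gene that varies more between livers, such as Pdk4, has larger distances. Distances of different genes are therefore not comparable.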

How the data were processed

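RNA from 6 livers, extracted with miRNeasy kits per the labels' protocols, was sequenced after rRNA depletion with a stranded TruSeq kit. The submitters' processing notes name STAR 2.7.3a, Partek 9 and the mm10 build. The authors deposited estimated counts (expected counts) per gene, not normalized, of which 22.4% were not whole (tolerance 0.01). Values of Ppara, Creb3l3, Bdh1 and Acat1 were not whole in 4 to 5 libraries, so reads shared with other features may enter them. Counting settings, strand use and annotation were not given in the sources used here.

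Counts were rounded and filtered with filterByExpr (minimum count 10), and fitted with edgeR 4.0.16 (TMM factors, quasi-likelihood F test) over 14896 genes. The SE was the log2 fold change divided by the square root of F. DESeq2 1.42.0, limma-voom (limma 3.58.1), other size factors and filters, and fits without 1 library were alternatives. Fits with the clock index or with GC and length trends taken out were added after seeing the data. Totals of 26767415 to 30871262 counts per library make a floor of 3 counts equal 0.0954 to 0.114 CPM, which covers counting error only. Each p reflects variation among these 6 mice. Scripts were tested on simulated data.

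The 7 genes and the lists were chosen with earlier results of these data known. Named genes were the 7, up to 3 called genes per list (smallest p, commoner direction) and 1 in the opposite direction, or, with no call, the gene of smallest p. The 2 nearest genes in level and members of small families were named too. Some other values were chosen after they were seen. Among them were those of Oxct1, Slc16a1, Bdh2, Angptl4, Cyp4a10, Cyp4a14, Cyp4a31, Cyp4a32, Rxra, Ppargc1a, Crp, Hamp, Apcs, Apoa1, Sds, Igfbp1, Mbtps1 and Mbtps2. Gene positions follow GENCODE M21, which the table's positions match for 19892 genes with an end 1 base larger. Some genes of the ketone body list are counted in its totals and not reported here by name.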

Additional observations from a re-analysis of the deposited data

How the results depend on the processing

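Of 112 alternative values for the 7 genes, 94 kept direction and side of the threshold, 12 in 4 genes fell short of it, 3 for Creb3l3 passed it and 3 turned direction. Among the other 33 named genes, 445 of 527 values kept direction and side of the threshold. Of the rest, 69 fell short of the threshold, 10 passed it and 3 turned direction. Pdk4 turned to 0.10 without HFHC replicate 3, 0.12 without Chow replicate 9 and 1.04 with the clock index as covariate, and lay at -0.67 without HFHC replicate 2. Egfr turned to 0.07 without Chow replicate 7 (-0.40 without Chow replicate 8) and 0.68 with the clock index, and Arrdc4 to 0.23 with the clock index. The cause was not tested. Leaving out 1 library at a time gave 207 to 527 genes higher and 154 to 553 lower, and 2 to 4 of the 7 genes higher. Over the same fits the counts of higher genes were 1 to 4 for ketone body genes, 0 to 2 for partners and coregulators (0 lower), and 10 to 24 for PPAR alpha targets. They were 0 to 2 for the CREB3 family, 5 to 7 for CREB3L3 targets, 1 to 2 for pyruvate dehydrogenase and 2 to 4 for pantetheinases. They were 0 to 1 for uncoupling proteins and 2 to 4 higher and 1 to 7 lower for other fasting genes. These fits have fewer samples. With the clock index as covariate, 36 genes were higher and 31 lower, 2 CREB3L3 targets were called, and 0 in the 7 genes and in each of the other lists that had calls. Weighted limma-voom called 790 genes lower, 1 of the CREB3 family and 1 uncoupling protein higher, and DESeq2 1 of the CREB3 family. The 1 lower coregulator became 0 with upper-quartile factors, no count filter, the clock index or the GC and length trend taken out. No paired analysis was possible because the diets share no replicate numbers. With 3 livers per diet, differences the size of that of Ucp2 are at the edge of what the spread allows.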
